A study of Homo sapiens with 2 samples.

Results

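Ceramide and sphingolipid enzymes were examined in PLC-8024 cells, a human hepatocellular carcinoma (HCC) cell line, with and without overexpression of growth differentiation factor 1 (GDF1). The set was chosen by gene name and held 10 enzymes of the pathway, namely SPTLC1, SPTLC2, CERS2, CERS4, CERS5, CERS6, DEGS1, SGMS1, UGCG and ASAH1, out of 58174 genes listed in the RNA-seq tables. All 10 were found, each once, and all had at least 1 TPM (transcript abundance per length of the gene, with the same total in each library) in either library. The control cells (PLC-8024-CTR) carried a control vector, whereas the GDF1 cells (PLC-8024-GDF1) carried human GDF1 delivered by lentivirus, and both derive from the same line. The methods describe puromycin selection of stably transduced cells, and the promoter of the vector was not given in the sources used here. There was 1 library per condition. No difference therefore has a replicate check, no test was made and no p-value is given. TPM keeps no sequencing depth, so no counting error can be given either, and every difference below describes these 2 libraries.

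Ceramide is the hub of sphingolipid metabolism. In de novo synthesis, serine palmitoyltransferase joins serine to palmitoyl-CoA at the endoplasmic reticulum, ceramide synthases attach a second fatty acyl chain to the sphingoid base, and a desaturase then makes ceramide. Each ceramide synthase prefers acyl-CoAs of a certain chain length, so the mixture of synthases bears on which ceramides a cell can make. Ceramide is then turned into sphingomyelin or glucosylceramide, or is cleaved by ceramidases to sphingosine, the precursor of sphingosine 1-phosphate. In liver, CERS2 is known as the main synthase of ceramides with very long chains.

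A change below is the log2 ratio of GDF1 cells to control cells after 1 TPM was added to both, which shrinks differences between low levels. The median change was -0.20 over 14929 genes, those that reached 1 TPM in one library or the other, so each change is also given relative to that median where it matters. The labels of the cells were checked first. GDF1 itself was listed at 2.1 TPM in control cells and 4.64 TPM in GDF1 cells. CERS1, whose exons hold the GDF1 coding sequence, was listed at 13.3 and 9612 TPM. CERS1 is not among the 10 enzymes, since its TPM cannot be told apart from that of the introduced gene. All 12 markers of hepatocytes and liver cancer on a marker list had at least 1 TPM in either library, with SERPINA1 at 5308 and 2915 TPM, and all 12 were lower in GDF1 cells, by -0.39 to -2.61 on the log2 scale. The summed level of this list was 10211 and 5523 TPM. Of the epithelial markers, 3 of 4 reached 1 TPM, with a summed level of 2440 and 3002 TPM carried by KRT8 and KRT18, while CDH1 was listed at 10.4 and 0.33 TPM. Of the markers of other cells, 1 of 6 fibroblast genes reached 1 TPM (COL3A1), 1 of 5 leukocyte genes (LYZ) and 1 of 3 endothelial genes (PECAM1). The summed levels of these lists were, in that order, 3.80 and 2.61 TPM, 298.8 and 214.7 TPM, and 23.5 and 22.4 TPM. The defining markers PTPRC and VWF were listed at 0.0001 TPM, the value that stands for 0, in both libraries. The part of these markers in the differences below was not tested.

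Of the 10 enzymes, 9 were lower in GDF1 cells and 1, SPTLC2, was higher, where 63.3% of all genes tested were lower. CERS2, SGMS1 and ASAH1 were more than 2-fold lower, and SPTLC1 and CERS6 were more than 1.5-fold lower. No enzyme was 1.5-fold higher. CERS2 had the lowest change of the 10 on the TPM as deposited, at 97.6 TPM in control cells and 10.6 TPM in GDF1 cells. These are bulk libraries, in which fewer cells with a transcript and less of it per cell cannot be told apart. The median change of the 10 enzymes was -0.60, against -0.20 over all genes tested.

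These counts were read against the whole table. Past 2-fold lower were 3 of the 10 enzymes and 9.61% of all genes tested, and past 1.5-fold lower were 5 of the 10 enzymes and 25.3% of all genes. Past 2-fold higher were 0 of the 10 enzymes and 4.82% of all genes, and past 1.5-fold higher were 0 of the 10 enzymes and 11.5% of all genes. Among all genes past 2-fold, 33.4% were higher, and this share was 53.1% when the TPM of GDF1 cells were multiplied by 1.18 so that the median change of all genes was 0. With that rescaling CERS2 and SGMS1 were still more than 2-fold lower, whereas ASAH1 was not (-0.88).

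**Figure D1:**
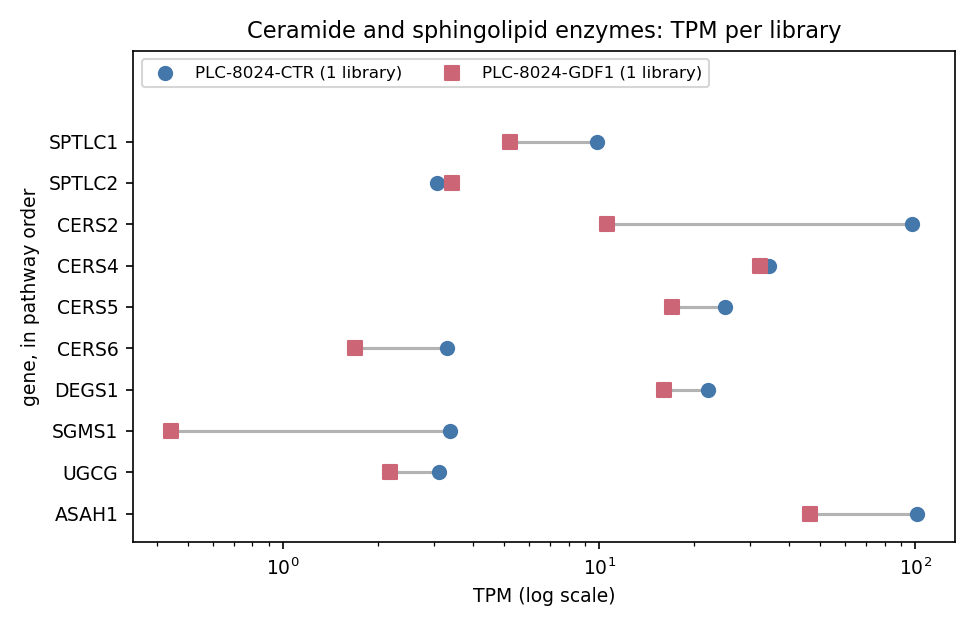
TPM of the 10 enzymes on a log axis, in pathway order, with a circle for the control library and a square for the GDF1 library (1 library each). CERS2 and SGMS1 show the widest gaps, from 97.6 to 10.6 TPM and from 3.36 to 0.44 TPM, and SPTLC2 is the only enzyme whose square lies to the right.

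In control cells, the levels were highest for ASAH1 (101.6 TPM) and CERS2 (97.6 TPM), followed by CERS4 (34.5 TPM), CERS5 (25.1 TPM), DEGS1 (22.1 TPM) and SPTLC1 (9.82 TPM). SGMS1 (3.36 TPM), CERS6 (3.30 TPM), UGCG (3.12 TPM) and SPTLC2 (3.06 TPM) lay within 0.30 TPM of each other at the low end. In GDF1 cells, ASAH1 was again highest at 46.4 TPM. CERS2 moved from place 2 to place 5 and SGMS1 from place 7 to place 10, while SPTLC2 moved from place 10 to place 7. Without replicates, no spread was available to say which neighbours in this order differ. Added up, the 10 enzymes amounted to 303.4 TPM in control cells and 135.3 TPM in GDF1 cells. The 8 enzymes other than CERS2 and ASAH1 amounted to 104.3 and 78.3 TPM.

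Serine palmitoyltransferase starts the pathway, and SPTLC1 and SPTLC2 encode its partner subunits. SPTLC1 (ENSG00000090054, chromosome 9 of GRCh37 (hg19), 94762369 to 94877695) was listed at 9.82 TPM in control cells and 5.22 TPM in GDF1 cells, a log2 change of -0.80. SPTLC2 (ENSG00000100596, chromosome 14, 77972340 to 78082980), which carries the catalytic lysine, was listed at 3.06 and 3.42 TPM, a log2 change of 0.12. The subunits thus lay on opposite sides of 0. Relative to the median of all genes, SPTLC1 was at -0.60 and SPTLC2 at 0.32. With rescaled TPM the signs stayed opposite, but rescaling raises both changes and so could have turned only the sign of SPTLC1. Within a library, where scaling cancels, the ratio of SPTLC2 to SPTLC1 was 0.31 in control cells and 0.66 in GDF1 cells. This is a log2 change of 1.07, or 0.92 with 1 TPM added to both genes.

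Because these subunits of a single enzyme differed in direction, their promoters are shown side by side. Each sequence is the 250 bases before the RefSeq start site on the minus strand of GRCh38.p14, chr9:92115414-92115663 for SPTLC1 and chr14:77616638-77616887 for SPTLC2, written 5′ to 3′. Capitals mark matches on either strand to the GC box (GGGCGG), the CCAAT box (CCAAT) and the SMAD box (CAGAC), the last searched because GDF1 is known to signal through SMAD proteins.
SPTLC1: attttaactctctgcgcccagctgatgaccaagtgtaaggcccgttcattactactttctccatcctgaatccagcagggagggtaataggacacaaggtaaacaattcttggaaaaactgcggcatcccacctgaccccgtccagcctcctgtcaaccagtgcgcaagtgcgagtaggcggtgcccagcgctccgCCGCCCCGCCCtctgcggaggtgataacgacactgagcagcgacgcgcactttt
SPTLC2: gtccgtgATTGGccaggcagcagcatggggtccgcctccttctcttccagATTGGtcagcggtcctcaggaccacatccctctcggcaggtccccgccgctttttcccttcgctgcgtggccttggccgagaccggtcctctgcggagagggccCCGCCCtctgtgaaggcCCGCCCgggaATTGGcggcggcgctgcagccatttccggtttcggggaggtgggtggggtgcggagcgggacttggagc
The SPTLC1 window held 2 GC boxes, which overlap each other, and no CCAAT box. The SPTLC2 window held 2 GC boxes and 3 CCAAT boxes. Neither held a SMAD box. Of all 35116 promoter windows of 250 bases in the table, 42.6% held a GC box, 32.0% a CCAAT box and 38.0% a SMAD box. The search covered 8 windows for 7 of the 10 enzymes, and none of the 8 held a SMAD box. No window of CERS2, CERS4 or ASAH1 was searched. A match or its lack describes these letters only.

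The regulators of serine palmitoyltransferase were then examined. ORMDL proteins are inhibitory subunits of the enzyme, and the 3 genes differed. ORMDL3 was listed at 13.7 TPM in control cells and 56.6 TPM in GDF1 cells, a log2 change of 1.97. On the TPM as deposited with 1 TPM added it was the 1 gene of the sphingolipid list more than 2-fold higher, and there were 2 such genes with 0.1 TPM added, by the plain ratio, after rescaling or after GC correction. ORMDL1 was lower, at 21.9 and 12.5 TPM (-0.76), and ORMDL2 was listed at 39.7 and 34.7 TPM (-0.19), at the median of all genes. SPTSSA, the small activating subunit, was listed at 12.5 and 8.94 TPM (-0.45). KDSR, which reduces the product of serine palmitoyltransferase, was listed at 11.6 and 6.04 TPM (-0.84).

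Among the ceramide synthases, CERS2 differed more than the other 3. CERS2 (ENSG00000143418, minus strand of chromosome 1 of GRCh37, 150933059 to 150947479), which prefers very long acyl chains, was listed at 97.6 TPM in control cells and 10.6 TPM in GDF1 cells. Its log2 change was -3.09, or -2.89 relative to the median of all genes, and 10.9% of the control level was left. Only 35 of the 14929 genes tested had a lower change. CERS2 ranked 1388 by TPM in control cells and 6049 in GDF1 cells among the same genes.

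The other synthases moved less. CERS4 (ENSG00000090661, chromosome 19, 8271620 to 8327305), which prefers long chains, was listed at 34.5 and 32.3 TPM, a log2 change of -0.09. That is above the median of all genes by 0.11, and its sign turned to 0.14 with rescaled TPM. CERS5 (ENSG00000139624, chromosome 12, 50523072 to 50561316), known for palmitoyl ceramides, was listed at 25.1 and 17.0 TPM (-0.54). CERS6 (ENSG00000172292, chromosome 2, 169312759 to 169631644), which shares that preference, was listed at 3.30 and 1.69 TPM (-0.67). CERS3, the synthase of skin and testis, was at 0.0001 TPM in both libraries.

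The makeup of the synthases in the cells was therefore different. Added up, CERS2, CERS4, CERS5 and CERS6 amounted to 160.4 TPM in control cells and 61.6 TPM in GDF1 cells, and CERS2 made up 88.03% of that difference. Without CERS2 the sums were 62.8 and 51.0 TPM, a log2 change of -0.30. CERS2 held 60.8% of the sum in control cells and 17.2% in GDF1 cells. CERS4 held 21.5% and 52.5%, and so took the leading place in GDF1 cells at nearly the same TPM. CERS5 held 15.6% and 27.6%, and CERS6 held 2.06% and 2.75%. The ratio of CERS2 to CERS4 was 2.83 in control cells and 0.33 in GDF1 cells. These shares are of transcripts, and neither protein nor lipid was measured in these files.

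**Figure D2:**
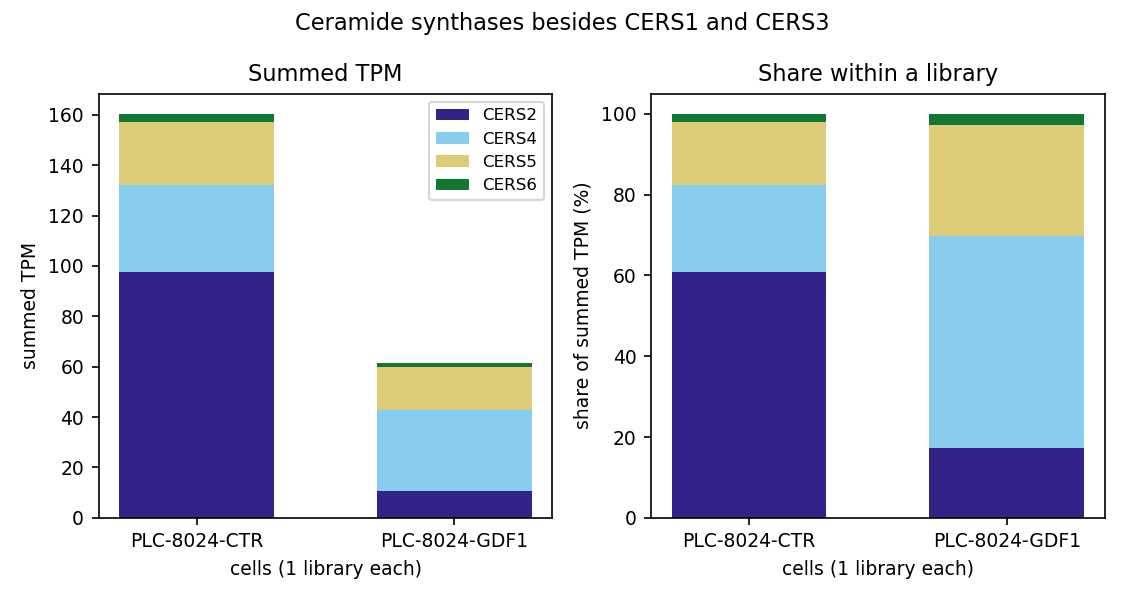
Stacked bars of the TPM of CERS2, CERS4, CERS5 and CERS6 (left, summed TPM) and of each gene's share of that sum (right, percent) in control cells and GDF1 cells, 1 library each and no error bars. The CERS2 segment shrinks from 60.8% to 17.2% while CERS4 grows from 21.5% to 52.5% of a smaller sum.

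The position of CERS2 was examined for genes that could share its reads or its change. On the opposite strand SETDB1 shares 4162 bases with CERS2 and was listed at 16.2 and 13.1 TPM. The long noncoding RNA AL590133.2, inside the CERS2 span on the opposite strand (150937721 to 150938732), was listed at 12.8 and 18.9 TPM. AL590133.1, which overlaps the CERS2 start on the opposite strand, was listed at 0.026 and 1.79 TPM. Whether reads were assigned by strand was not given in the sources used here. With the TPM of all 3 added to CERS2 the log2 change was -1.49, still more than 2-fold lower. It was then no longer the lowest of the 10 enzymes, since SGMS1 was at -1.63 with its own opposite-strand gene added. Such a sum takes the whole TPM of each gene, though only part of SETDB1 overlaps CERS2. It therefore cannot show what assigning reads to the other strand would do. No gene of at least 1 TPM overlapped any of the 10 enzymes on the same strand. Within 1 Mb of CERS2 lay 49 other genes of at least 1 TPM, whose median change was -0.08. Of these, 0 were more than 2-fold lower and 4 were more than 2-fold higher, where 9.61% and 4.82% of all genes tested were. AL590133.1 (1.44) was among the 4.

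Very long acyl-CoAs reach CERS2 from the fatty acyl elongation cycle, and 10 genes of this cycle had at least 1 TPM. ELOVL1, the elongase of saturated very long chains, was higher in GDF1 cells, at 55.2 and 104.1 TPM (0.90). TECR, the last reductase of the cycle, was also higher, at 437.9 and 663.3 TPM (0.60). HSD17B12, the ketoacyl-CoA reductase, was lower, at 31.3 and 12.3 TPM (-1.28). ELOVL5 was listed at 30.4 and 17.3 TPM (-0.78) and ELOVL2 at 8.27 and 4.99 TPM (-0.63), both elongases of polyunsaturated chains. With 1 TPM added, the other 5 genes lay within 1.5-fold. Of these, HACD2, at 1.11 and 0.45 TPM, was 2.46-fold lower by the plain ratio. ELOVL1 and CERS2, which act one after the other, thus had changes of opposite sign.

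DEGS1 (ENSG00000143753, chromosome 1, 224363458 to 224381143) encodes the desaturase that completes ceramide. It was listed at 22.1 TPM in control cells and 16.0 TPM in GDF1 cells, a log2 change of -0.44 and of -0.24 relative to the median. DEGS2, which also hydroxylates, was listed at 1.48 and 3.32 TPM (0.80). The level of DEGS1 thus remained above that of DEGS2 in both libraries. FA2H, in the same group of the list, was at 0.96 and 1.48 TPM (0.34), or 1.54-fold higher by the plain ratio.

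Ceramide is used by sphingomyelin synthase 1 (SGMS1) and by the glucosylceramide synthase UGCG. SGMS1 (ENSG00000198964, chromosome 10, 52065346 to 52384923) was listed at 3.36 TPM in control cells and 0.44 TPM in GDF1 cells, a log2 change of -1.60. Both values are low, and the pseudocount weighs on them, since the plain TPM ratio gave -2.93. UGCG (ENSG00000148154, chromosome 9, 114659094 to 114697649) was listed at 3.12 and 2.18 TPM, a log2 change of -0.38. The ratio of UGCG to SGMS1 was 0.93 in control cells and 4.95 in GDF1 cells. The enzymes at this branch point thus stood at like levels in the control library and 4.95-fold apart in the GDF1 library. With 1 TPM added to both genes the ratios were 0.95 and 2.21.

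The SGMS1 promoter is shown because SGMS1 was the only enzyme more than 2-fold lower among those whose windows were searched. It is the 250 bases before the RefSeq start site on the minus strand of GRCh38.p14, chr10:50623957-50624206, with capitals as above.
SGMS1: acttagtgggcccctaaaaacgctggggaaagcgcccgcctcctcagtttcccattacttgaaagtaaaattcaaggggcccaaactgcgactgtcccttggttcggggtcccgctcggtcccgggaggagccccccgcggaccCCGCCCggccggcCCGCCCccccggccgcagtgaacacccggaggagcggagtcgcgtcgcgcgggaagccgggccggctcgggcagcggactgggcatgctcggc
The window held 2 GC boxes, no CCAAT box and no SMAD box. Its GC content was 70.0%, against a median of 58.0% over all windows. The 7 other windows of the enzymes spanned 56.4% in SPTLC1 to 80.4% in the second window of DEGS1.

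Among the other genes of sphingomyelin metabolism, 7 had at least 1 TPM. With 1 TPM added, 4 of the 7 were more than 1.5-fold lower and 0 were 1.5-fold higher, where 25.3% and 11.5% of all genes were. SMPDL3A, a relative of acid sphingomyelinase, was listed at 9.35 and 2.06 TPM (-1.76). SMPD4, a neutral sphingomyelinase, was listed at 12.8 and 4.56 TPM (-1.32). SMPD1, the acid sphingomyelinase of lysosomes, was listed at 9.78 and 5.63 TPM (-0.70), and SAMD8, an SGMS1 relative that makes ceramide phosphoethanolamine, at 2.27 and 1.14 TPM (-0.61). SGMS2, the sphingomyelin synthase of the plasma membrane, was under 1 TPM in both libraries at 0.68 and 0.26 TPM. The sphingomyelinase SMPD3 was listed at 0.73 and 1.34 TPM (0.44), or 1.84-fold higher by the plain ratio. SMPD2 was listed at 30.1 and 29.5 TPM (-0.03) and SMPDL3B at 49.7 and 34.7 TPM (-0.51). Of the 7 genes, 6 were thus lower and 1, SMPD3, was higher.

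Beyond UGCG, 5 genes of glycosphingolipid synthesis had at least 1 TPM, and 1 was past 1.5-fold. GAL3ST1, which makes sulfatide, was listed at 16.5 and 7.51 TPM (-1.04). B4GALT5, which makes lactosylceramide, was listed at 7.09 and 4.76 TPM (-0.49), and A4GALT, which makes globotriaosylceramide, at 37.3 TPM in both libraries. Of the lysosomal and other breakdown genes, 10 of 13 were higher, with a median change of 0.17, where 5486 of all 14929 genes were higher and the median was -0.20. None of the 13 was 1.5-fold higher, and relative to the median of all genes 10 of 13 were above 0. Past 1.5-fold with 1 TPM added were NEU1 and GLB1. NEU1, the lysosomal sialidase, was listed at 90.8 and 34.7 TPM (-1.36). GLB1, the lysosomal beta-galactosidase, was listed at 19.8 and 11.4 TPM (-0.75). NEU3, at 2.50 and 1.34 TPM (-0.58), was 1.86-fold lower by the plain ratio.

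ASAH1 (ENSG00000104763, chromosome 8, 17913501 to 17942507) encodes acid ceramidase, the lysosomal enzyme that cleaves ceramide to sphingosine. It was listed at 101.6 TPM in control cells and 46.4 TPM in GDF1 cells, a log2 change of -1.11 and of -0.92 relative to the median. It was the highest of the 10 enzymes in both libraries. The ratio of ASAH1 to DEGS1, a ceramide-cleaving to a ceramide-making enzyme, was 4.60 in control cells and 2.89 in GDF1 cells. Of the other ceramidases, ACER3 was listed at 1.97 and 2.04 TPM (0.03), and the other 3 were under 1 TPM in both libraries. ASAH1 therefore held most ceramidase TPM in each library.

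Among the genes of sphingosine 1-phosphate and ceramide 1-phosphate, 10 had at least 1 TPM. Of these, 5 were more than 1.5-fold lower and 0 were 1.5-fold higher, against 25.3% and 11.5% of all genes. SPHK1, a kinase that makes sphingosine 1-phosphate, was listed at 57.1 and 18.9 TPM (-1.55), and SPHK2 at 19.8 and 11.1 TPM (-0.78). SPNS2, the exporter of sphingosine 1-phosphate, was listed at 5.22 and 1.13 TPM (-1.55). On the side of its breakdown, SGPP2, a phosphatase, was listed at 1.18 and 0.42 TPM (-0.62). ALDH3A2, which oxidises the aldehyde released by the lyase, was listed at 8.86 and 4.28 TPM (-0.90), and the lyase SGPL1 itself at 7.33 and 5.58 TPM (-0.34). Of the receptors, S1PR2 was listed at 5.18 and 5.96 TPM (0.17) and S1PR5 at 1.92 and 1.27 TPM (-0.36). With 1 TPM added, the 4 lipid transfer genes were all within 1.5-fold. COL4A3BP, which carries ceramide to the Golgi for SGMS1, was listed at 3.06 and 1.73 TPM (-0.57), or 1.77-fold lower by the plain ratio.

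Over the whole pathway list, 57 of 76 genes besides the 10 enzymes had at least 1 TPM. Past 1.5-fold lower were 17 of the 57 (29.8%), against 25.3% of all genes, and past 1.5-fold higher were 4 (7.02%), against 11.5%. Past 2-fold lower were 7 (12.3%), against 9.61% of all genes, and past 2-fold higher was 1, against 4.82%. The median change of the 57 was -0.24, near the -0.20 of all genes. The shares of the 57 thus lay a little over the background in the lower direction and a little under it in the higher direction. Both rest on few genes. With rescaled TPM, 8 of the 57 were past 1.5-fold higher and 9 lower, against 2690 and 2518 of all 14929 genes. By the plain ratio these were 6 and 21 of the 57, against 2126 and 4759 of 14810 genes.

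**Figure D3:**
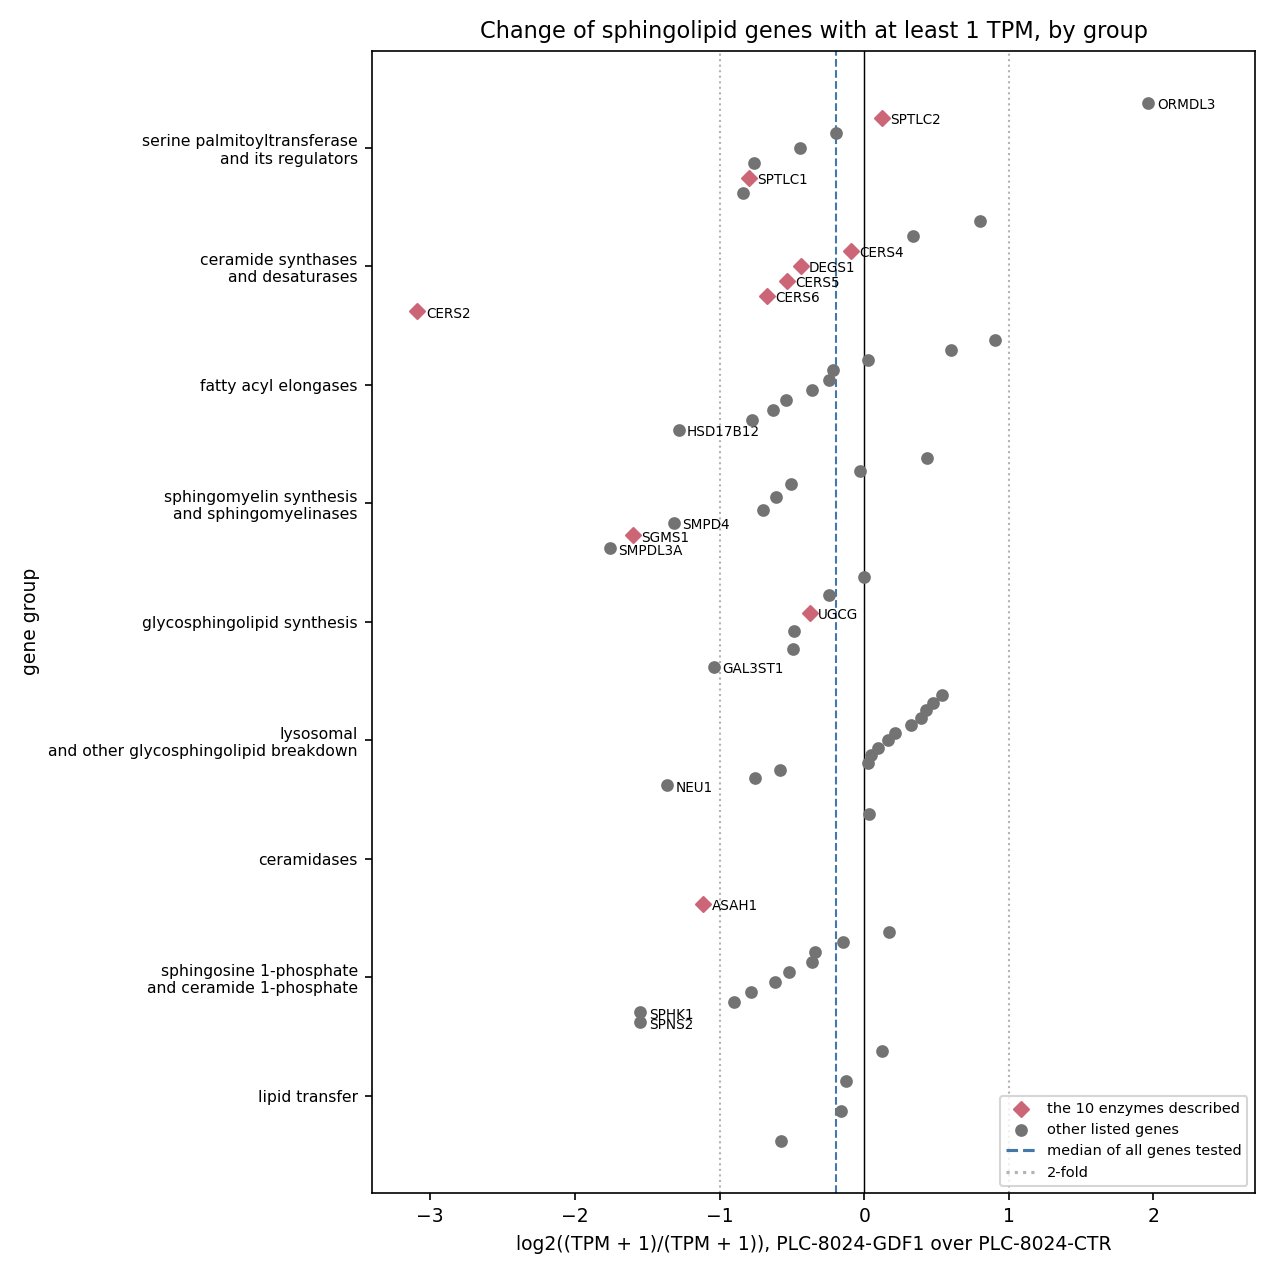
Log2 change of GDF1 cells over control cells for each sphingolipid gene with at least 1 TPM, by gene group, with diamonds for the 10 enzymes, circles for the 57 other genes, a dashed line at the median of all genes (-0.20) and dotted lines at 2-fold; vertical offsets only separate points. CERS2 lies alone at -3.09 and ORMDL3 alone at 1.97, and 10 of 13 breakdown genes lie right of 0.

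The change varied with GC content across the table, which touches the 10 enzymes because their longest transcripts had a median GC content of 42.8%, against 49.6% over all genes tested. The trend over 11792 protein-coding genes was -0.48 at the GC content of ASAH1 (37.3%) and -0.09 at that of CERS4 (57.5%). CERS2, with 53.8% GC, was at -2.90 after the trend was subtracted, and SGMS1 at -1.17. ASAH1 was then at -0.64 and no longer more than 2-fold lower. SPTLC1 was at -0.43, CERS5 at -0.23, CERS6 at -0.22 and DEGS1 at -0.01, while SPTLC2 was at 0.53 and UGCG at 0.08. The median of the 10 enzymes was then -0.22. The part of GC content in the differences was not tested.

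**Figure D4:**
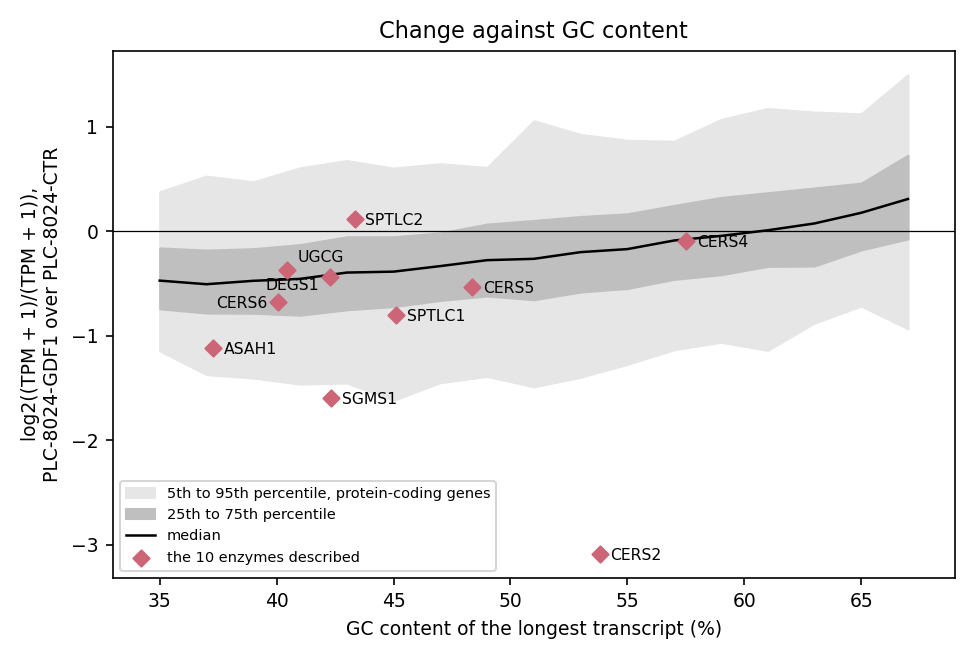
Log2 change against the GC content of the longest transcript, with diamonds for the 10 enzymes and shaded bands for protein-coding genes of at least 1 TPM in bins of 2% GC content, where the end bins take all genes beyond them. SPTLC2 lies above the inner band, CERS2 (-3.09) and SGMS1 (-1.60) lie below the outer band, and CERS4, DEGS1 and UGCG lie near the median line.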

How the data were processed

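RNA-seq was analysed in 1 library of PLC-8024-CTR and 1 library of PLC-8024-GDF1 cells, grouped by their titles. The authors selected poly(A) RNA, filtered paired-end reads with Trimmomatic 0.36, aligned them to hg19 with HISAT2 2.1.0 and quantified them with StringTie 1.3.3b, per the labels and methods. The deposited values are TPM, 1 per gene and library for 58174 Ensembl identifiers, in a column headed as a mean TPM, although 1 library per condition is listed. The methods name the refGene annotation. TPM summed to 999990 and 999995, so depth is unknown.

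The tables were joined on gene identifier. Log2 changes used a pseudocount of 1 TPM, and the 14929 genes that reached 1 TPM in one library or the other formed the background for counts past 1.5-fold and 2-fold. Positions, lengths and GC content came from GENCODE v44 on GRCh37, which held 55726 identifiers. A lowess curve (span 0.3) gave the GC trend. Promoter sequences came from RefSeq on GRCh38.p14. Of 89 symbols on the pathway list, 86 matched, and 3 were alternative names of matched genes. The enzymes, their overlapping genes, markers and all listed genes past 1.5-fold were named, with other listed genes of at least 1 TPM where they bear on an enzyme. Listed genes under 1 TPM were named after their values were seen. The CERS2 to CERS4 ratio and the searches for overlapping genes on the opposite strand were added after the data were seen. The enzymes and lists were chosen with earlier results of these data known. The work was done in Python 3.11.15 (statsmodels 0.14.6, pandas 2.3.3, numpy 2.4.6; figures in matplotlib 3.10.9) and was tested on simulated data. Alternatives were other pseudocounts, minimums and scalings, GC correction and overlapping genes added.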

Additional observations from a re-analysis of the deposited data

How the results depend on the processing

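No paired analysis was possible because only 1 control and 1 GDF1 library were compared. Of 140 alternative values, 111 were counted as unchanged. Log2 changes and medians had to keep their direction and their side of the 2-fold line (1.5-fold for medians). Counts had to come within 1.5 times the reported one. The 111 include values that could not move. Among them are 8 shares of the synthase sum, neither log2 changes nor counts, to which CERS3 added only 0.0001 TPM. With no minimum, the enzyme values and the counts past 2-fold were also fixed. Each enzyme already had 1 TPM, and genes under 1 TPM cannot pass 2-fold with 1 TPM added. CERS2 was more than 2-fold lower under each of its 5 alternatives (-3.20 to -1.49), and SGMS1 under each of its 5 (-2.93 to -1.17). Both sets of 5 include the sum with opposite-strand genes, which cannot show how reads were shared.

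With TPM rescaled to a median of 0, CERS4 reversed to 0.14, ASAH1 weakened to -0.88 and the median of the 10 enzymes to -0.42. With the GC trend subtracted, CERS4 reversed to 0.0033 and UGCG to 0.0785, ASAH1 weakened to -0.64, the median of the enzymes to -0.22, and 3 instead of 5 enzymes were more than 1.5-fold lower. With at least 5 TPM, 3 of the 6 enzymes left were more than 1.5-fold lower. Of all genes, 1970 of 14640 were more than 1.5-fold lower with the GC trend subtracted, and 2555 of 9632 with at least 5 TPM. Other listed genes past 1.5-fold numbered 8 higher and 9 lower, against 4 and 17, both with rescaled TPM and with the GC trend subtracted. Of all genes, 2690 of 14929 were then higher and 2518 lower with rescaling, and 2599 and 1970 of 14640 with GC correction. Among the other listed genes, 2 instead of 1 were past 2-fold higher with rescaling, GC correction, a 0.1 TPM pseudocount or the plain ratio. The log2 change of the ratio of SPTLC2 to SPTLC1 was 0.92 with 1 TPM added.

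Over all genes, 720 were past 2-fold higher and 1434 lower, and 1720 and 3771 past 1.5-fold. Past 2-fold were 1167 higher and 2315 lower when 0.1 TPM was added, 1167 and 2380 by the plain ratio, 1102 higher with rescaling, 788 lower with GC correction and 471 higher with at least 5 TPM. Past 1.5-fold were 2690 higher with rescaling, 2599 higher and 1970 lower with GC correction, and 1054 higher with at least 5 TPM. Fewer genes were tested with GC correction (14640), by the plain ratio (14810) and with at least 5 TPM (9632). Rescaling sets the median change to 0 by construction. GC correction subtracts a trend fitted to protein-coding genes only, and the median over all genes was then 0.044. Beyond that the cause was not tested. Adding same-strand overlapping genes gave no value, because none had 1 TPM. TPM keeps no depth, so the counting error of each value is unknown.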

Other observations

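Of the 76 other genes on the sphingolipid list, 19 were under 1 TPM in both libraries, and 5 of these were listed at 0.0001 TPM in both. The 5 were SPTLC3, an alternative catalytic subunit of serine palmitoyltransferase, CERS3, the alkaline ceramidase ACER1 and the sphingosine 1-phosphate receptors S1PR1 and S1PR3. ACER2, an alkaline ceramidase of the Golgi, was listed at 0.19 TPM in control cells and 0.0001 TPM in GDF1 cells. GALC, the lysosomal galactosylceramidase, was listed at 0.069 and 0.30 TPM, and UGT8, which makes galactosylceramide, at 0.036 and 0.032 TPM.

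Antisense RNAs at the enzymes were mostly low. CERS6-AS1, which overlaps the end of CERS6 by 3184 bases on the opposite strand, was listed at 2.42 and 0.81 TPM (-0.92), and CERS6 itself at 3.30 and 1.69 TPM (-0.67). With both added up, the log2 change was -0.94. SGMS1-AS1 was listed at 0.17 and 0.14 TPM. The median change of genes of at least 1 TPM within 1 Mb was -0.58 for SGMS1 (12 genes, 0 more than 2-fold lower) and -0.19 for ASAH1 (13 genes, 2 more than 2-fold lower). Over all genes tested, 9.61% were more than 2-fold lower.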
